A study of Mus musculus with 6 samples.

Results

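The genes of nitric oxide synthesis and of its cGMP receptor system were examined in endothelial cells sorted from glomeruli, the filtering units of the kidney. The mice lacked eNOS, the endothelial nitric oxide synthase, and some had been given streptozotocin (STZ), a beta-cell toxin used to induce diabetes. They were 10 genes chosen by symbol from the 12911 genes listed in the count tables, namely Nos3, Nos2, Nostrin, Gch1, Ddah1, Ddah2, Arg2, Gucy1a3, Gucy1b3 and Prkg1, and each was listed once and had reads in every library. The control group was eNOS-null without treatment (3 libraries) and the STZ group was eNOS-null with STZ treatment (3 libraries), so the loss of eNOS is shared by all 6 and no group with an intact gene is part of the comparison. Glomeruli were collected with magnetic beads, digested, and sorted by the fluorescent protein EYFP. Each library held the RNA of 4 mice, so the errors and tests below rest on differences among pools, not among single animals. The driver of EYFP, the exact eNOS allele, the strain, age and sex of the mice, and the dose and duration of STZ are not given in the labels.

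Total counts were 4387339 to 8751732.5 in control pools and 10734376 to 12662371.5 in STZ pools, and every STZ pool was deeper than every control pool. The 10 endothelial markers were abundant in every library, led by Emcn and Ehd3. Their summed level in CPM (the count scaled by the size of the library) was 12640 to 13470 in control and 17760 to 18970 in STZ pools. Of the 10, 6 were called higher (5.47% of all tested genes). Xist stood at 709 CPM in control and 0.687 CPM in STZ pools, while Eif2s3y of the Y chromosome stood at 1.13 and 92.8 CPM. Treatment and this sex-linked difference therefore cannot be told apart in any comparison below. Podocyte markers, led by Podxl, had 0 of 10 members called by edgeR, DESeq2 or limma-voom, which called 9.78%, 10.1% and 9.25% of all tested genes. At an unadjusted p under 0.05 edgeR gave 2 podocyte markers, both lower. The podocyte sums overlapped between groups at 4339 to 6994 against 4696 to 5805 CPM.

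Nitric oxide is made from arginine by the nitric oxide synthases, of which Nos3 (eNOS) is the endothelial and Nos2 (iNOS) the inducible enzyme. The reaction needs tetrahydrobiopterin, which is made by a route that starts with Gch1, and it is inhibited by asymmetric dimethylarginine (ADMA), which the Ddah enzymes break down. The gas acts mainly on soluble guanylate cyclase, a dimer of an alpha subunit (Gucy1a3) and a beta subunit (Gucy1b3) that makes cGMP, and cGMP activates the protein kinase Prkg1. In vessels the synthase sits in the endothelium, while the cyclase and the kinase are best known from the contractile smooth muscle, pericyte and mesangial cells beside it.

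The inducible synthase rose in STZ pools, and the beta subunit of guanylate cyclase and the kinase fell. Of the 10 genes, edgeR's quasi-likelihood test called 1 higher and 2 lower (adjusted p under 0.05), where 5.47% of all tested genes were called higher and 4.32% lower (9.78% in either direction). The STZ pools lay wholly above the control pools in 2 of the 10 genes and wholly below in 4, where the shares over all tested genes were 15.4% and 13.7% (29.1% in either direction). DESeq2 called 2 of the 10 higher and 3 lower (10.1% of all genes in either direction), and limma-voom called 1 higher and 3 lower (9.25% of all genes). Over the 10 genes the median log2 fold change, STZ relative to control, was -0.19, and over all tested genes it was -0.01. Gucy1a3, Gucy1b3 and Prkg1 had the largest fitted differences, and 1.16%, 1.78% and 2.82% of all tested genes had a larger absolute log2 fold change. For Nos2 this share was 3.91%, and for Ddah1, at the other end, 91.4%.

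**Figure D1:**
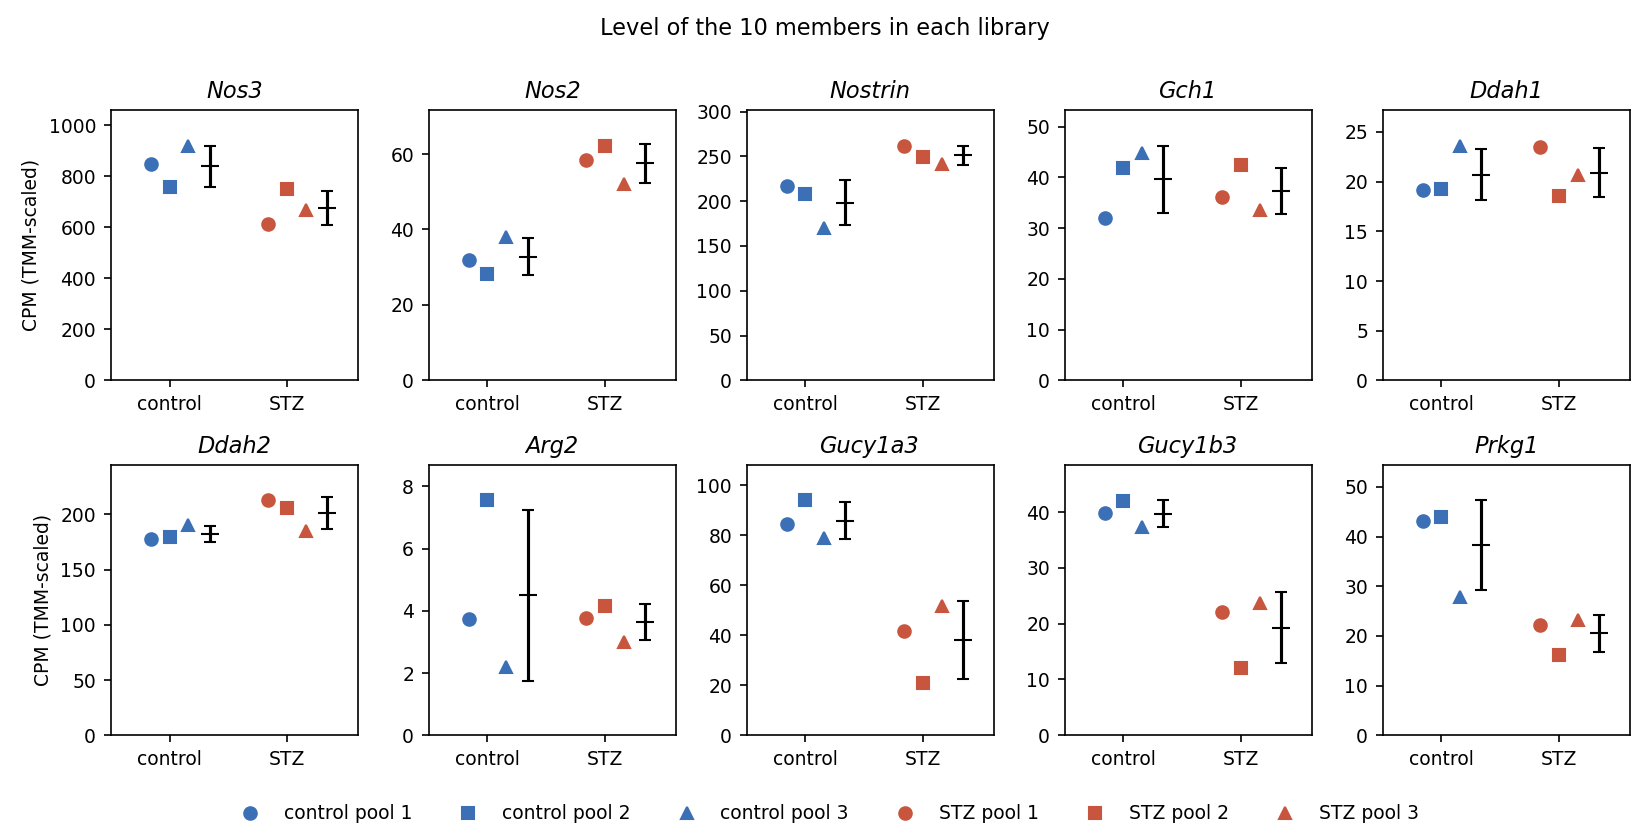
CPM of each of the 10 genes (y axis, linear, from 0) in the 3 control pools (blue) and 3 STZ pools (red), with the group mean and SD in black. Nos2 lies higher in all 3 STZ pools, Gucy1a3, Gucy1b3 and Prkg1 lie lower in all 3, and Gch1, Ddah1, Ddah2 and Arg2 overlap between groups.

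Levels of different genes were compared as CPM per kb of listed transcript length. Nos3 was the most abundant of the 10, with 204 ± 19.5 CPM per kb in control and 164 ± 16.6 in STZ pools (SD, n = 3 each), and it ranked 323 of 12911 listed genes by its mean over all 6 libraries. Ddah2 followed with 138 ± 5.44 and 152 ± 10.9 CPM per kb, and Nostrin with 109.8 ± 13.8 and 139 ± 5.68 CPM per kb. In STZ pools Nos3 and Ddah2 lay within 1 SD of Nos3 of each other. The other 7 genes lay at or below 18.5 CPM per kb in both groups. Gucy1a3 stood at 18.5 ± 1.61 CPM per kb in control and 8.17 ± 3.37 in STZ pools, Gch1 at 14.3 ± 2.42 and 13.5 ± 1.64, and Gucy1b3 at 12.3 ± 0.734 and 5.96 ± 1.96, where Gch1 and Gucy1b3 did not differ beyond their spread in control pools. Nos2 stood at 8.21 ± 1.23 CPM per kb in control and 14.4 ± 1.28 in STZ pools, so that it lay below Gch1 and both cyclase subunits in control pools and level with Gch1 in STZ pools. Prkg1 (5.54 ± 1.31 and 2.98 ± 0.542), Ddah1 (5.52 ± 0.685 and 5.58 ± 0.657) and Arg2 (3.17 ± 1.94 and 2.57 ± 0.416 CPM per kb) were the least abundant, and in control pools Prkg1 and Ddah1 stood level.

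**Figure D2:**
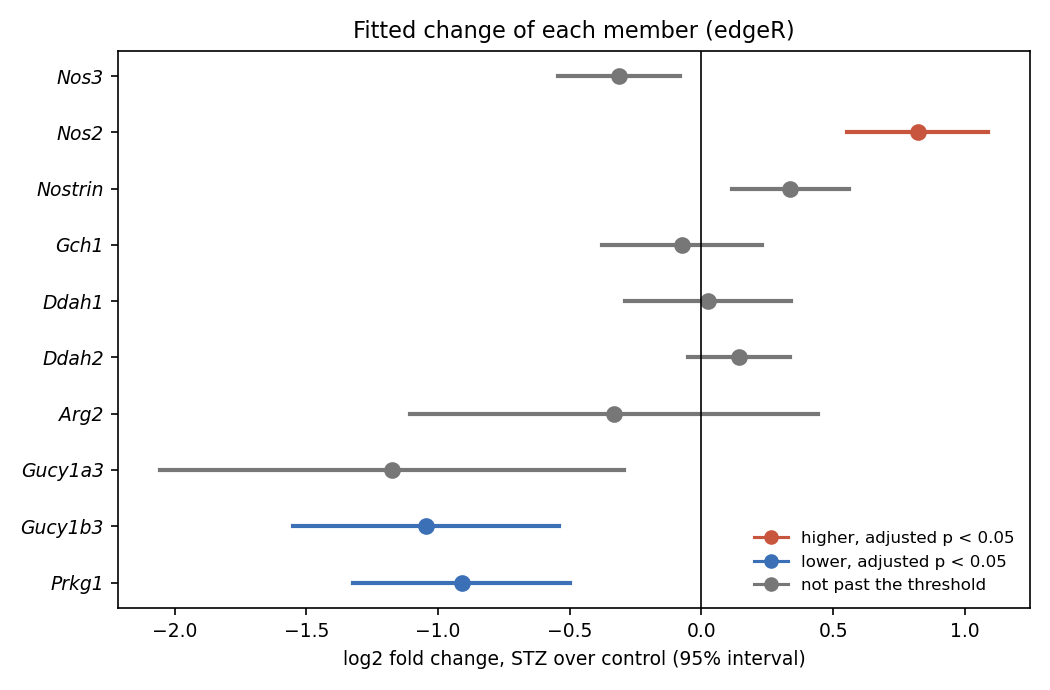
Fitted log2 fold change of STZ over control (x axis) for each gene, with its 95% interval from edgeR, coloured by call. Nos2 lies at 0.82, Gucy1b3 at -1.04 and Prkg1 at -0.91, all past the threshold, while Gucy1a3 lies lowest at -1.18 with the widest interval and does not pass.

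Nos2, the high-output synthase that is induced by inflammatory signals (NM_010927; mm10 chromosome 11, 78920859 to 78960124, plus strand), had 32.0, 28.3 and 38.0 CPM in control pools 1, 2 and 3 and 58.3, 62.3 and 52.1 CPM in STZ pools 1, 2 and 3. Every STZ pool lay above every control pool, and the gap was wider than the range within either group. The difference was 1.77-fold, a log2 fold change of 0.82 ± 0.12 (SE) with a 95% interval of 0.55 to 1.09 and an adjusted p of 0.000954. It was called in all 15 alternative settings, with log2 fold changes of 0.73 to 0.93. The leukocyte and macrophage markers, a cell class known for Nos2, had 0 of 7 members called higher and 1 lower (5.47% and 4.32% of all tested genes). The lower one was the B-cell gene Cd79a (-1.71 ± 0.31). Their summed level was 99.6 to 133 CPM in control and 105 to 114 CPM in STZ pools, so the groups overlapped, and the median log2 fold change of the 7 was 0.27. The sum joins unlike members: the general leukocyte gene Ptprc (-0.33 ± 0.12; adjusted p = 0.125) and Cd79a had negative values, and the 5 myeloid genes had positive ones, none of which passed. These 5 were Lyz2 (0.66 ± 0.20; adjusted p = 0.0572), Csf1r (0.50 ± 0.25; 0.254), Cd14 (0.35 ± 0.18; 0.256), Cd68 (0.27 ± 0.23; 0.542) and Itgam (0.22 ± 0.21; 0.586). Lyz2, a lysozyme of macrophages, stood at 7.47, 8.99 and 5.30 CPM in control and 11.4, 11.2 and 12.2 CPM in STZ pools, and Csf1r, the receptor for macrophage growth factor, at 8.68, 8.83 and 3.76 against 9.28, 10.6 and 11.1 CPM. STZ pools lay wholly above control pools in these 2 (15.4% of all tested genes) and overlapped in the other 3. Each of the 7 markers had reads in every library. The members other than Lyz2 and Cd14 were named after their values were seen. The part of such cells in the Nos2 difference was not tested.

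Nos3 encodes the enzyme that these mice lack. Its locus (NM_008713; mm10 chromosome 5, bases 24364819 to 24384474 of the plus strand) had 847, 757 and 917 CPM in control pools and 613, 749 and 667 CPM in STZ pools. All STZ pools lay below all control pools, but STZ pool 2 and control pool 2 were close, at 748.6 and 756.6 CPM. The log2 fold change was -0.31 ± 0.11 (SE; 95% interval -0.55 to -0.08), and it did not pass the threshold (adjusted p = 0.0910) nor in any of the 15 alternative settings, in which the adjusted p ran from 0.0501 to 0.349. Counts of 4152 to 8657 per library show that transcripts of the locus were abundant in both groups, and these gene-level values hold nothing on whether they encode a working enzyme. GENCODE M21 lists Atg9b, an autophagy gene, on the opposite strand, sharing 294 exonic bases (7.12% of those of Nos3), and the antisense gene Gm15587, sharing 1040 exonic bases (25.2%). The labels do not say whether reads were counted by strand, so reads of these genes cannot be told apart from reads of Nos3. Atg9b itself had 16.2, 15.4 and 17.9 CPM in control and 9.67, 11.8 and 12.5 CPM in STZ pools, far below Nos3.

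The summed level of the 10 endothelial markers went the other way from Nos3, with 6 of the 10 called higher (5.47% of all tested genes). Tek (0.02 ± 0.09) and Tie1 (-0.01 ± 0.09) overlapped between groups. A comparison with the summed level was chosen after the values were seen and is given without a test. Nos3 stood at 62.9, 58.1 and 72.6 CPM per 1000 CPM of the 10 markers in control pools and at 32.3, 40.7 and 37.6 in STZ pools. These values did not overlap. Nos2 stood at 2.37, 2.17 and 3.01 per 1000 CPM in control and 3.07, 3.39 and 2.93 in STZ pools, and these overlapped, since STZ pool 3 lay below control pool 3. Nostrin stood at 13.4 to 16.1 in control and 13.6 to 13.8 in STZ pools and overlapped as well. The summed level is weighted to Ehd3 (3001 ± 335 to 5230 ± 241 CPM) and Emcn (2759 ± 343 to 3685 ± 258 CPM). Ratios to single endothelial markers were not examined, so the overlap of Nos2 and Nostrin holds for this sum only.

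Within a library, the ratio of Nos2 to Nos3 does not depend on how libraries are scaled. In counts per kb this ratio was 0.0390, 0.0386 and 0.0428 in control pools and 0.0983, 0.0859 and 0.0807 in STZ pools. Every STZ pool thus held more Nos2 for its Nos3 than every control pool, by 1.13 on the log2 scale, yet Nos3 remained the more abundant transcript in all 6 libraries. An exact two-sided permutation test gave p = 0.1, the smallest that 3 against 3 libraries can give, and 0.25 after adjustment over the 5 ratios examined. The ratio of Arg2 to Nos3, between the enzyme that competes for arginine and the synthase, was 0.0128, 0.0290 and 0.00701 in control and 0.0179, 0.0161 and 0.0131 in STZ pools. Its groups overlapped (exact permutation p = 0.7, adjusted 0.7), and control pools alone spanned the whole range.

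**Figure D3:**
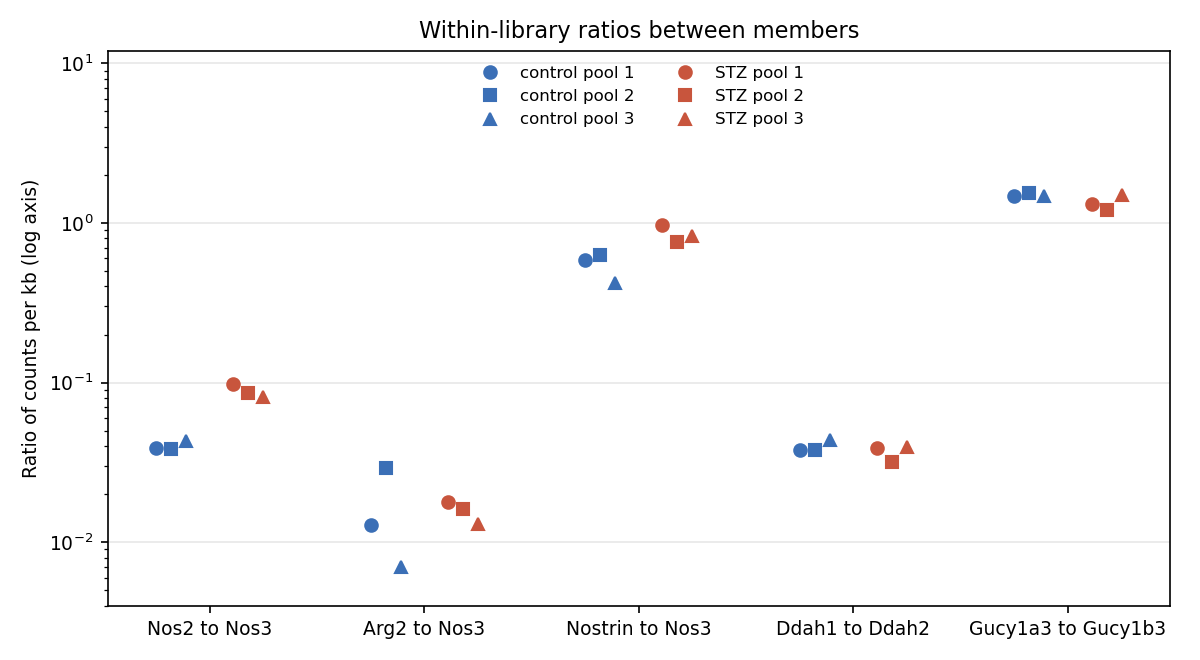
Ratios of counts per kb between pairs of the genes (y axis, log scale) in each control pool (blue) and STZ pool (red). Nos2 to Nos3 and Nostrin to Nos3 are higher in all STZ pools, and the other 3 ratios overlap between groups.

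Nostrin, an adaptor protein that binds eNOS and takes part in its traffic from the plasma membrane (NM_181547; mm10 chromosome 2, 69135800 to 69189329, plus strand), had 217, 208 and 169.9 CPM in control pools and 262, 249.6 and 242 CPM in STZ pools. All STZ pools were above all control pools, and control pool 3 was the lowest of the 6. The log2 fold change was 0.34 ± 0.10 (SE; 95% interval 0.12 to 0.56; adjusted p = 0.0560), just short of the threshold. DESeq2 called it (adjusted p = 0.0348), and over all 15 alternatives the adjusted p ran from 0.0348 to 0.207. The ratio of Nostrin to Nos3 was 0.584, 0.628 and 0.423 in control and 0.976, 0.761 and 0.827 in STZ pools, a difference of 0.66 on the log2 scale without overlap (exact permutation p = 0.1, adjusted 0.25).

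Among 14 other genes whose proteins bind, modify or move the synthases, 3 were called higher and 0 lower, leaving 11 uncalled, with a median log2 fold change of 0.22 (all tested genes: 5.47% called higher, 4.32% lower). The 3 were Hsp90ab1 (1019.7 ± 20.3 to 1344 ± 94.97 CPM; log2 fold change 0.40 ± 0.10; adjusted p = 0.0181) and Hsp90aa1 (0.34 ± 0.10; adjusted p = 0.0491), the chaperones that hold eNOS in its active state, and Lypla1 (0.33 ± 0.09; adjusted p = 0.0331), a thioesterase that removes palmitate from proteins. None of the 3 was called in a fit that blocked on replicate number, nor when control pool 1 or either STZ pool 1 or 3 was left out. The calmodulin gene Calm2, the most abundant of the uncalled genes per length, did not pass (-0.07 ± 0.12; adjusted p = 0.784).

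The cofactor genes showed no called change. Gch1, GTP cyclohydrolase and the rate-limiting step of tetrahydrobiopterin synthesis (NM_008102; mm10 chromosome 14, 47153895 to 47189402, minus strand), had 32.1, 41.9 and 44.8 CPM in control and 36.1, 42.4 and 33.6 CPM in STZ pools. The groups overlapped throughout. Its log2 fold change was -0.07 ± 0.14 (adjusted p = 0.803), and the 95% interval of -0.38 to 0.23 bounds the difference. Of 6 other genes of this route, 0 were called in either direction by edgeR, by DESeq2 or by limma-voom (edgeR gave 3 an unadjusted p under 0.05, all lower), and their median log2 fold change was -0.24. The 2 most abundant per length were Pts, which acts after Gch1 (66.8 ± 3.05 against 54.6 ± 3.21 CPM; -0.29 ± 0.09; adjusted p = 0.0715), and Qdpr, which regenerates the cofactor (60.1 ± 1.52 against 51.5 ± 3.50 CPM; -0.23 ± 0.09; adjusted p = 0.164). STZ pools lay wholly below control pools in 3 of the 6 (13.7% of all tested genes) and wholly above in 1 (15.4% of all tested genes). The latter was Gchfr, the feedback regulator of Gch1, which was chosen here after its value was seen (0.32 ± 0.17; adjusted p = 0.294).

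The enzymes that clear ADMA did not differ detectably. Ddah2 (NM_016765; mm10 chromosome 17, 35059035 to 35062099, plus strand) had 178, 179 and 191 CPM in control and 213, 206 and 185 CPM in STZ pools, and STZ pool 3 fell inside the control range. Its log2 fold change was 0.14 ± 0.09 (95% interval -0.05 to 0.34; adjusted p = 0.369). Ddah1 (NM_026993; mm10 chromosome 3, 145758692 to 145894277, plus strand) had 19.1, 19.3 and 23.6 CPM in control and 23.5, 18.6 and 20.6 CPM in STZ pools, a log2 fold change of 0.03 ± 0.15 (95% interval -0.29 to 0.34; adjusted p = 0.939). Per length Ddah2 exceeded Ddah1 in every library. The ratio of Ddah1 to Ddah2 was 0.0380, 0.0380 and 0.0438 in control and 0.0390, 0.0319 and 0.0394 in STZ pools, and the groups overlapped (exact permutation p = 0.6, adjusted 0.7).

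Arg2, the mitochondrial arginase that uses the same substrate as the synthases (NM_009705; mm10 chromosome 12, 79130788 to 79156301, plus strand), was near the limit of what these depths measure, with 34, 47 and 10 counts in control and 39, 48 and 37 counts in STZ pools. In CPM this was 3.74, 7.55 and 2.21 in control and 3.77, 4.15 and 2.99 in STZ pools. Control pool 2 was the highest and control pool 3 the lowest of the 6, so no difference was detectable (log2 fold change -0.33 ± 0.36; 95% interval -1.11 to 0.44; adjusted p = 0.627), and without control pool 2 the value was 0.22. Vti1b on the opposite strand shares 285 exonic bases with Arg2 (20% of them) and had 56.3 to 65.2 CPM, so its reads may also enter an Arg2 count if strand was not used.

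The arginine carriers Slc7a1 and Slc7a2 were called lower, and the heavy chain Slc3a2 was called higher. Of 10 other genes of arginine and ADMA metabolism, 1 was called higher and 2 lower (5.47% and 4.32% of all tested genes), with a median log2 fold change of -0.13. Slc7a1, the main cationic amino acid transporter of endothelium, had 38.8, 36.5 and 47.3 CPM in control and 27.7, 26.5 and 27.8 CPM in STZ pools. All STZ pools were lower (log2 fold change -0.57 ± 0.12; adjusted p = 0.00981), and the call held in all 15 alternative settings. Slc7a2, a related carrier, fell from 12.2 ± 2.69 to 6.26 ± 1.91 CPM (-0.96 ± 0.25; adjusted p = 0.0272). Leaving out control pool 1, control pool 2 or STZ pool 1 ended this call (adjusted p = 0.0769, 0.105 and 0.108). Slc3a2, the heavy chain that several amino acid exchangers share, rose from 249 ± 22.1 to 345 ± 3.15 CPM (0.47 ± 0.09; adjusted p = 0.00623), also in all 15 alternatives. Prmt1, the main enzyme that forms ADMA precursors in proteins (0.17 ± 0.12; adjusted p = 0.407), and the ornithine enzyme Oat (-0.02 ± 0.13; adjusted p = 0.950) did not pass.

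Of the receptor genes, Gucy1b3 and Prkg1 were called lower in STZ pools and Gucy1a3 was not called. Gucy1a3 (NM_021896; mm10 chromosome 3, 82092427 to 82145877, minus strand) and Gucy1b3 (NM_001161796; mm10 chromosome 3, 82032004 to 82074711, minus strand) are neighbours on the same strand with 17715 bases between them, and Prkg1 (NM_011160; mm10 chromosome 19, 30564487 to 31664370, minus strand) has a second listed transcript that starts 100663 bases further upstream. RefSeq start windows (GRCm38.p6, whose coordinates are those of mm10) were matched for 7 of the 10 genes, 9 windows in all, and Nos3, Nos2 and Arg2 had none. The 250 bases before a start are shown for the 2 genes called lower. The calls rest on counts and not on these sequences. Both Gucy1a3 windows hold part of an annotated exon and are not shown. Capitals mark a GC box (GGGCGG, or CCGCCC on the other strand) or a CCAAT box (CCAAT, or ATTGG on the other strand), and each run reads 5′ to 3′ on the minus strand.
Gucy1b3, chr3:82074712-82074961: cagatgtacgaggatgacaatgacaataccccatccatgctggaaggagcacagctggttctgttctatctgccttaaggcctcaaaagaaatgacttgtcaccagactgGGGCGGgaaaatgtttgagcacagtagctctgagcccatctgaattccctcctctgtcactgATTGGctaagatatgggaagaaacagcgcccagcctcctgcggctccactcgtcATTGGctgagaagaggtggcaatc
Prkg1, upstream start, chr19:31765034-31765283: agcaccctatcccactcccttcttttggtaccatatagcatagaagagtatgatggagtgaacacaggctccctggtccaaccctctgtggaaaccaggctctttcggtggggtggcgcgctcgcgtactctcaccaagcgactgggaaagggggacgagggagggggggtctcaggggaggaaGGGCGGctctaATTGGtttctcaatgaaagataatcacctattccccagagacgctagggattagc
Prkg1, downstream start, chr19:31664371-31664620: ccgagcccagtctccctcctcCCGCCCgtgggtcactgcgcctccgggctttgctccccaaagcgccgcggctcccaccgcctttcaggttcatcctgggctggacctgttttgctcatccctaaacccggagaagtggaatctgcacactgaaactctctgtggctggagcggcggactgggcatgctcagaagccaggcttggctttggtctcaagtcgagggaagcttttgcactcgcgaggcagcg

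A GC box was present in 4 of the 5 windows of Gucy1a3, Gucy1b3 and Prkg1, where 32.7% of the 32851 windows of that length in the table held one. The 5 windows held 51.2 to 64.0% G and C, where the median over all windows was 52.4%, and enrichment was not tested. A CCAAT box was present in 2 of the 5 (33.8% of all windows), with 2 matches in the Gucy1b3 window. The TATA box (TATAAA, or TTTATA on the other strand) and the CArG box, the motif bound by serum response factor in many smooth muscle genes, had 0 matches in the 5 windows, where 12.4% and 1.47% of all windows held one. No motif matches overlapped each other in the windows shown, and a match is a description of letters only.

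Gucy1b3, the beta subunit that carries the haem to which nitric oxide binds, had 39.8, 42.1 and 37.3 CPM in control pools and 22.0, 12.02 and 23.8 CPM in STZ pools. All STZ pools lay below all control pools, and STZ pool 2 was the lowest. The log2 fold change was -1.04 ± 0.22 (SE; 95% interval -1.55 to -0.54; adjusted p = 0.0193). It was called in 13 of 15 alternatives, the exceptions being the fits that left out control pool 1 (adjusted p = 0.0766) or control pool 2 (adjusted p = 0.0711). Gucy1a3, the alpha subunit, had 84.7, 94.0 and 79.1 CPM in control and 41.7, 20.8 and 51.6 CPM in STZ pools. These groups did not overlap either, and STZ pools varied more (coefficient of variation 41.2%) than control pools (8.74%). Its log2 fold change of -1.18 ± 0.34 (95% interval -2.06 to -0.30) did not pass in the edgeR fit (adjusted p = 0.117). It passed in 4 of the 15 alternatives, namely DESeq2 (adjusted p = 0.0207), limma-voom (0.0101), edgeR with robust estimation turned off (0.0132) and edgeR without STZ pool 2 (0.000563, at a log2 fold change of -0.88).

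The proportion of the 2 subunits was compared within libraries. The ratio of Gucy1a3 to Gucy1b3 in counts per kb was 1.48, 1.55 and 1.47 in control and 1.32, 1.20 and 1.503 in STZ pools, so the alpha subunit was the more abundant in all 6 libraries. STZ pools 1 and 2 lay below every control pool, and STZ pool 3 lay within the control range. The difference was -0.17 on the log2 scale (exact permutation p = 0.3, adjusted 0.5, where 0.1 is the smallest possible), and it was -0.0925 without STZ pool 2 and -0.252 without STZ pool 3.

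Prkg1, the cGMP-dependent kinase that relaxes contractile cells, had 43.1, 43.8 and 27.8 CPM in control and 22.2, 16.3 and 23.1 CPM in STZ pools. Control pool 3 was well below the other control pools, yet above every STZ pool. The log2 fold change was -0.91 ± 0.19 (SE; 95% interval -1.32 to -0.50; adjusted p = 0.0109), called in 14 of 15 alternatives, all but the fit that left out control pool 1 (adjusted p = 0.0619). The deposited value of Prkg1 combines 2 listed transcripts, so the data do not show which of them was lower.

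Markers of mesangial and mural cells moved the same way as these 3 genes. Of the 14 listed markers, edgeR called 4 lower, DESeq2 5 and limma-voom 7, each called 0 higher (edgeR gave 0 higher also at an unadjusted p under 0.05), STZ pools lay wholly below control pools in 10, and the median log2 fold change was -0.78. Over all tested genes, edgeR called 4.32% lower, and 13.7% lay wholly below. Called lower were Rgs5 (-1.13 ± 0.13), Cspg4 (-1.28 ± 0.16) and Notch3 (-0.999 ± 0.163), known from pericytes, and the smooth muscle myosin gene Myh11 (-0.79 ± 0.17). The most abundant per length were Mcam (0.20 ± 0.10; adjusted p = 0.246) and Serpine2 (0.05 ± 0.30; adjusted p = 0.940). None was at 0 in any library, and Cnn1 and Angpt1 of this list were not analysed here. Their summed level was 1912, 1853 and 1808 CPM in control pools and 1421, 975 and 1573 CPM in STZ pools. STZ pool 2 was the lowest and STZ pool 3 the highest of the STZ pools for this sum and for Gucy1a3, Gucy1b3 and Prkg1 alike. In such bulk libraries, fewer cells of a type and less RNA per cell cannot be told apart.

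As percent of the control mean, STZ pools 1, 2 and 3 stood at 48.5, 24.3 and 60.004 for Gucy1a3, at 55.5, 30.3 and 59.9 for Gucy1b3, at 58.1, 42.5 and 60.5 for Prkg1, and at 76.5, 52.5 and 84.7 for the summed markers. This sum depends on its abundant members. It includes Mcam (351 ± 31.7 to 403 ± 32.8 CPM) and Serpine2 (210 ± 10.9 to 218 ± 79.9 CPM), whose means were not lower in STZ pools. STZ pools lay wholly below control pools in 10 of the 14 markers. A comparison with each marker singly, added after the values were seen and given without a test, depended on the marker. Relative to the marker, Gucy1b3 was lower in all STZ pools for 7 of the 14 markers, higher in all STZ pools for 1 and overlapping for 6. For Gucy1a3 these counts were 7, 0 and 7, and for Prkg1 3, 1 and 10. Against Pdgfrb, the receptor that marks pericytes and mesangial cells, Gucy1b3 stood at 0.164, 0.190 and 0.163 in control and 0.221, 0.225 and 0.204 in STZ pools, whereas against Mcam it stood at 0.1099, 0.134 and 0.0995 in control and 0.0516, 0.0328 and 0.0571 in STZ pools. Pdgfrb itself was lower in all STZ pools (-1.36 ± 0.30; edgeR adjusted p = 0.0538), whereas Mcam was not (0.20 ± 0.10; edgeR adjusted p = 0.246). Which cells the Mcam reads came from was not tested. The part of mesangial and mural cells in the lower levels was not tested beyond these ratios.

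**Figure D4:**
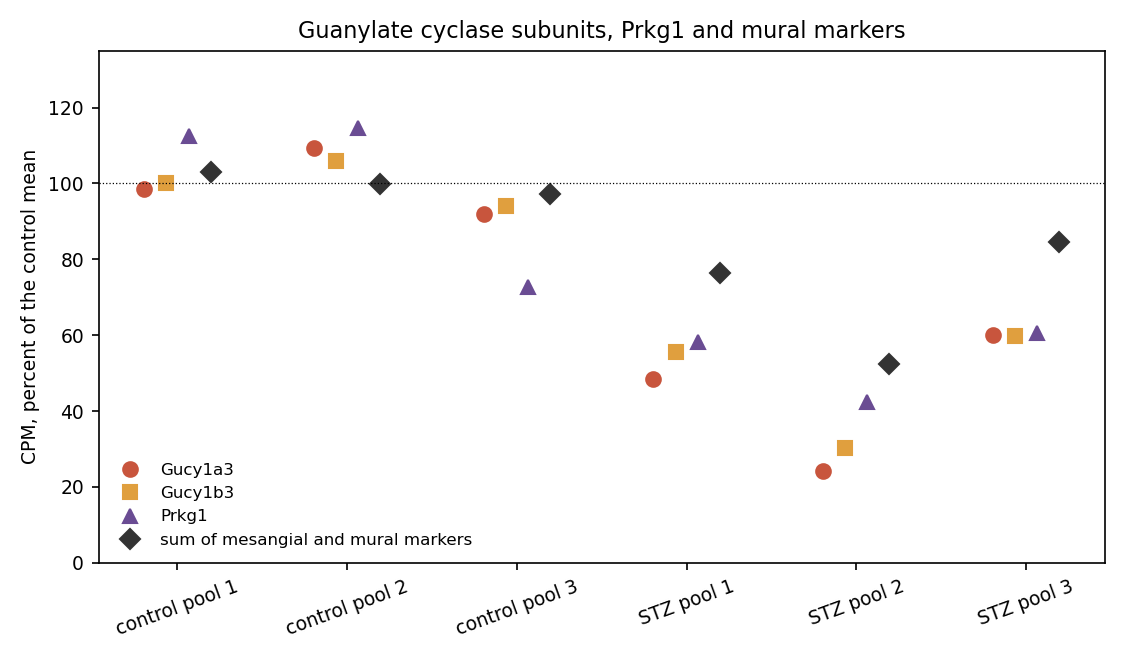
CPM of Gucy1a3, Gucy1b3, Prkg1 and the summed 14 mesangial and mural markers in each library, as percent of the control mean (y axis, linear, from 0). All 4 are lower in the 3 STZ pools than in the 3 control pools, and in STZ pool 2 they stand at 24.3, 30.3, 42.5 and 52.5%. The sum includes Mcam and Serpine2, whose means were not lower in STZ pools.

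Genes that remove, export or transmit cGMP split by direction. Of 17 others in this list, 2 were called higher and 4 lower, with a median log2 fold change of -0.23, where 5.47% of all tested genes were called higher and 4.32% lower. The mesangial and mural markers, with their median of -0.78, were lower in the same pools, and their part in the lower calls was not tested. The endothelial markers had a median of 0.43 with 6 of 10 called higher, and their part in the higher calls was not tested either. Pde2a, a phosphodiesterase that cGMP itself stimulates, was the most abundant of the phosphodiesterases per length and had 845, 704 and 834 CPM in control and 1184, 1351 and 1259.6 CPM in STZ pools. All STZ pools lay above all control pools (0.67 ± 0.10; adjusted p = 0.00123). Abcc4, which exports cyclic nucleotides, rose from 58.0 ± 2.35 to 98.3 ± 4.37 CPM (0.76 ± 0.09; adjusted p = 0.000141). Pde3a, which cleaves cAMP and is inhibited by cGMP, had 31.1, 32.6 and 20.8 CPM in control and 10.8, 8.99 and 13.6 CPM in STZ pools. It had the largest fall among the genes of this list (-1.35 ± 0.20; adjusted p = 0.000912), and Pde2a, Abcc4 and Pde3a were called in all 15 alternatives. Pde5a, the cGMP-specific enzyme that sildenafil inhibits, fell from 41.1 ± 4.81 to 27.7 ± 2.70 CPM (-0.58 ± 0.13; adjusted p = 0.0109).

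The other lower calls were Pde3b, the sister enzyme of Pde3a (-0.67 ± 0.17; adjusted p = 0.0261), and Mrvi1, a Prkg1 substrate at the calcium store (-1.003 ± 0.229; adjusted p = 0.0343). Pde3b was called in 9 of 15 alternatives, Mrvi1 in 10, and Pde5a in 13. For Mrvi1 the fit that blocked on replicate number gave an adjusted p of 0.101, and leaving out STZ pool 1 or any control pool gave 0.0519 to 0.139. For Pde5a the exceptions were the fits without control pool 1 (adjusted p = 0.0645) and STZ pool 1 (0.0525). Gucy1a2, the alternative alpha subunit, chosen here after its value was seen, had 64.5, 67.3 and 82.4 CPM in control and 34.7, 16.1 and 47.3 CPM in STZ pools and did not pass (-1.12 ± 0.42; adjusted p = 0.196). Vasp, a classical Prkg1 substrate (-0.13 ± 0.11; adjusted p = 0.549), and Rgs2, a brake on contractile receptors that Prkg1 activates (-0.30 ± 0.22; adjusted p = 0.475), did not pass.

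**Figure D5:**
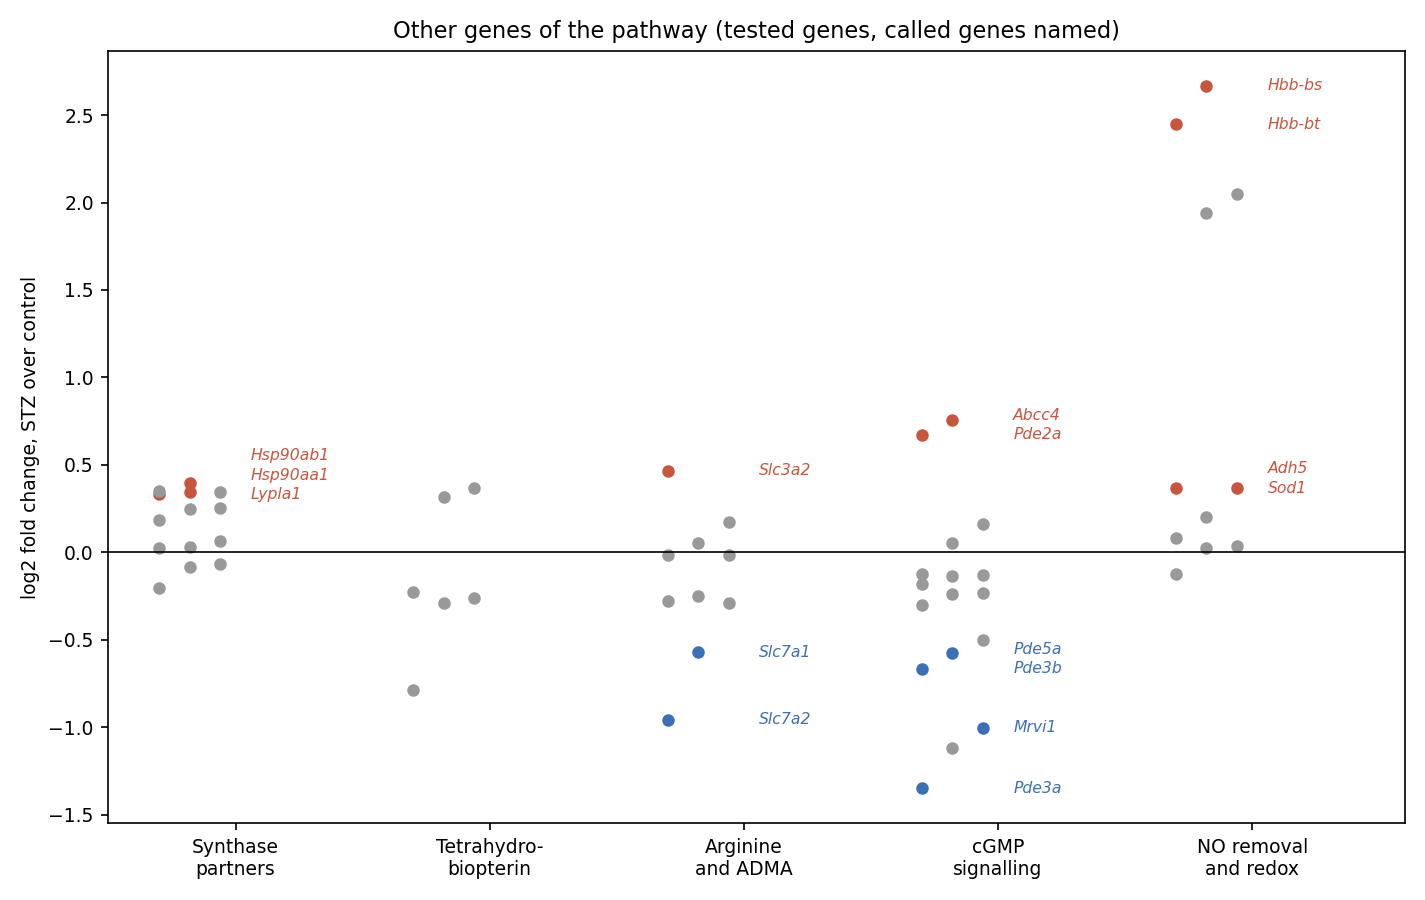
Log2 fold change of STZ over control (y axis) for each tested gene of the 5 lists of other pathway genes, with called genes named and coloured by direction. Calls go upward in synthase partners (3) and nitric oxide removal (4), in both directions in arginine and cGMP genes, and 0 were made in the tetrahydrobiopterin list.

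The list of genes of nitric oxide removal and redox reactions had 4 of 11 members called higher and 0 lower, with a median log2 fold change of 0.37. Of all tested genes 5.47% were called higher. DESeq2 called 6 of the 11 higher, limma-voom 5, and both 0 lower. Adh5, which reduces S-nitrosoglutathione, rose from 65.1 ± 6.79 to 84.3 ± 5.52 CPM (0.37 ± 0.10; adjusted p = 0.0357), and Sod1, the cytosolic superoxide dismutase, from 250.02 ± 12.2 to 322 ± 31.4 CPM (0.37 ± 0.10; adjusted p = 0.0304). The haemoglobin genes Hbb-bs (2.66 ± 1.08 to 17.6 ± 3.99 CPM; 2.67 ± 0.27; adjusted p = 5.69e-05) and Hbb-bt (9.33 ± 5.11 to 50.1 ± 15.7 CPM; 2.45 ± 0.47; adjusted p = 0.0400) rose as well. Haemoglobin genes are near-identical copies whose reads the counting could split, and they are the main transcripts of red blood cells, whose part was not tested. Only Hbb-bs of the 4 was called in all 15 alternatives. Adh5 was called in 8, Sod1 in 10 and Hbb-bt in 11, and without control pool 3 or STZ pool 1 a single member of the list was called. The most abundant uncalled genes per length were Cyb5r3, a haem reductase of endothelium (0.04 ± 0.09; adjusted p = 0.860), and Cyba, a subunit of the NADPH oxidases (0.20 ± 0.11; adjusted p = 0.288).

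Over the 5 lists, 58 of 64 named genes were tested, of which 10 were called higher and 6 lower, beside 5.47% and 4.32% of all tested genes. Likeness to 3 of the genes was measured as the root mean square difference of log2 CPM over the 6 libraries, with each gene centred on its mean, among 10082 other genes with a mean log2 CPM of at least 3. Closest to Nos3 were Sema6d (0.02), Cpsf1 (0.02) and Zfp276 (0.03), and of the 8 other genes of the 10 that were compared the nearest was Gch1 (0.21), Arg2 being too low to enter. Closest to Nos2 were Eng (0.07), Skil (0.07) and Rhbdl2 (0.07). Closest to Gucy1b3 were Rgs4 (0.06), Atp1b2 (0.08) and Mrvi1 (0.09), with Gucy1a3 in place 8 (0.13) and Prkg1 in place 77 (0.25). These distances are descriptions over 6 libraries that share the group difference.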

How the data were processed

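RNA sequencing of 3 control and 3 STZ libraries was analysed from 1 deposited table per library, which holds an expected count per gene (multiples of 0.5, from the values) for 12911 genes. Build mm10 and limma are named per the submitters' processing notes; the sources used here do not give the aligner, counting tool, strand setting or gene filter. The 34 blank cells were read as 0, counts were rounded, and 1 was added to listed starts. Groups came from the labels. edgeR 4.0.16 in R 4.3.3 (filterByExpr, TMM, robust quasi-likelihood F test, two-sided) tested 12786 genes with Benjamini-Hochberg adjustment at 0.05. Errors are SD over pools or SE of the log2 fold change; intervals are 95%. Common biological coefficient of variation was 0.117. Ratios used exact permutation tests (scipy 1.17.1). On simulated counts at these depths, with 12763 genes tested, the fit recovered 62.7% of genes changed 1.5-fold and 92.4% of those changed 2-fold. Each simulated gene had the spread of the fitted trend, so these shares need not hold for genes that vary more between pools, such as Gucy1a3.

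The members and lists were chosen with earlier results of these data known. All 10 members were named, every called gene of 5 pathway lists with the 2 most abundant uncalled ones, the 2 most abundant genes of 6 marker lists, and the 3 nearest genes of Nos3, Nos2 and Gucy1b3; some genes that this rule names are not reported here. Tubule markers, led by Slc12a3 and Umod, had 1 of 6 called lower and 0 higher (4.32% and 5.47% of all tested genes). The lower one was Slc12a1 (-3.16 ± 0.64). The tubule list had a median log2 fold change of -1.03, and its sums overlapped at 144 to 464 CPM in control and 39.7 to 226.5 CPM in STZ pools. The 5 sex-linked genes had 4 called higher and 1 lower. Alternatives were DESeq2 1.42.0, limma-voom 3.58.1, other scalings and filters, thinning, a replicate block and leaving out each library.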

Additional observations from a re-analysis of the deposited data

How the results depend on the processing

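With 1 library left out, the number of called genes (1251 with all 6) was lowest at 662 when this was STZ pool 1 and highest at 1291 when it was control pool 3. That of higher genes ran from 426 to 695 and that of lower genes from 236 to 596. The total was 720 without control pool 1, and 355 genes were lower without STZ pool 3. The other 9 settings gave 1001 to 1285 calls. The ratio of Arg2 to Nos3 changed sign, at -0.31 without control pool 3 (range -0.31 to 0.72), and the other 4 ratios kept their sign without any 1 library; leaving out the length cannot change a difference of log2 ratios. Uncalled values changed sign for Gch1 (0.0265 without control pool 3, range -0.21 to 0.0265), Ddah1 (-0.25 thinned; -0.03, -0.02 and -0.0661 without control pool 1, control pool 2 or STZ pool 1; range -0.0661 to 0.13 with 1 library left out) and Arg2 (0.22 without control pool 2, range -0.59 to 0.22). Members called lower numbered 2 with all 6 libraries, 0 without control pool 1 and 1 without control pool 2. With a replicate block 1001 genes were called, 571 higher and 430 lower, and Nos2, Gucy1b3 and Prkg1 stayed called. Correlations of deviations between same-numbered libraries were 0.119, -0.128 and -0.163, and those between libraries of unlike number ran from -0.243 to 0.295. These values show no sign of pairing by number, but so few libraries per group cannot exclude it. Of the 10 members Arg2 had the fewest counts, 10 to 48 per library.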
